A study of Drosophila melanogaster with 9 samples.

Results

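Many Drosophila genes give rise to several transcripts, and the share that each transcript takes of the gene's RNA can change even where the gene's total does not. The present account describes 13 genes whose transcript shares differed from the control after RNA interference (RNAi) against HP1a or against Su(var)3-9 in S2 cells, an embryonic, macrophage-like cell line of Drosophila. The share of a transcript is its TPM divided by the summed TPM of all listed transcripts of its gene in the same library, given here in percent, and TPM is an abundance that is corrected for transcript length and sums to a fixed total per library. A gene was kept where its identifier started with CG, at least 2 transcripts were listed, and the summed TPM averaged at least 10 in each group. A transcript of it then had to differ from the control in mean share by at least 20 percentage points in the HP1a RNAi or the Su(var)3-9 RNAi libraries, with no overlap between the 3 libraries of that group and the 3 control libraries. Of 15168 genes in the transcript table, 14088 had such an identifier, 3621 of these had at least 2 transcripts, 601 passed the floor of 10 TPM, and 13 met the rule, which is 2.16% of the 601. The targeted genes, HP1a (CG8409) and Su(var)3-9 (CG6476), were left out, and 15 genes met the rule with them. Because the genes were selected on the share differences from the control themselves, these are given below as a description without a test.

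Total RNA was sequenced from 9 libraries, 3 per group. All cells were S2 cells that had received 1 µg of double-stranded RNA, against GFP in the control, against HP1a or against Su(var)3-9, and were collected 3 days after transfection. Su(var)3-9 is an enzyme that methylates histone H3 in heterochromatin, and HP1a is a protein that reads the mark. The study asked what their depletion does to genes lying in heterochromatin. The labels do not say whether the replicates were separate cultures on separate days, so p-values measure only the spread between these libraries.

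A gene can make alternative transcripts by starting transcription at another promoter, by splicing the RNA in another way or by ending it at another site. Splicing is carried out by the spliceosome, and SR proteins and hnRNP proteins steer which splice sites it uses. Some alternative transcripts encode different proteins, while others differ only in untranslated parts. Short reads often match several transcripts of a gene, and RSEM, the program behind these values, divides such reads between them by a statistical model, so a share is an estimate.

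The libraries were examined before the genes were compared. Both targeted genes had more, not less, RNA in the libraries labelled with their knockdown. The HP1a gene had a summed 393, 285 and 317 TPM in the HP1a RNAi libraries and 91.5, 53.8 and 79.7 TPM in the control, and Su(var)3-9 had 380, 262 and 463 TPM in the Su(var)3-9 RNAi libraries and 36.9, 23.8 and 36.4 TPM in the control. The groups are therefore named by their labels, and no difference below is a statement about the amount of either protein. Of 8 markers of hemocytes, the blood cells of the fly, 5 or 6 averaged at least 1 TPM in a group, led by Pxn at 12.6 to 15.1 TPM and srp at 6.38 to 6.77 TPM, while NimC1 was at 0.09 TPM or less and Ppn at 0.577 TPM or less, and the sum of the 8 lay between 18.8 and 38.1 TPM per library. Sums over marker lists of other tissues reached 1.68 TPM for neurons, 2.30 TPM for the germline and 0.39 TPM for muscle. Genes with a CG identifier held 9.70% to 15.3% of the TPM of a library. TPM keep no record of the number of reads, so the depth behind each share is unknown.

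The control libraries differed from one another in transcript shares, and control replicate 3 stood apart. In this library 118 of the 601 genes had a transcript whose share lay at least 20 points from the mean of the other libraries of the group, against 54 and 53 genes in the other controls, 14 to 18 in the HP1a RNAi libraries and 11 to 34 in the Su(var)3-9 RNAi libraries. Among the 13 genes, control replicate 3 was the control farthest from the knockdown libraries for 11 of the 13 leading transcripts (for each gene, the transcript with the largest difference that met the rule), and control replicate 1 was the nearest for 8. A share range of at least 20 points within the control was present in 10 of the 13 genes and in 144 of the 601. Without control replicate 3, only 4 of the 13 genes met the rule, namely Rcc1, CG4572, CG15019 and Hsf, and 6 other genes then met it as well. Without Su(var)3-9 RNAi replicate 3, 9 of the 13 met it, and without any other library 11 to 13 did. The total that met it was 31 without control replicate 1 and 25 without control replicate 2, where fewer libraries also made it easier to avoid overlap. What sets control replicate 3 apart was not tested.

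Of the 13 genes, 6 met the rule in the HP1a RNAi libraries (0.998% of the 601) and 12 in the Su(var)3-9 RNAi libraries (2% of the 601). The comparisons share their control libraries. In 5 genes the same transcript met it in both, namely Rcc1, CG12567, hpRNA:CR18854, CG32425 and CG4572. Only eIF3b met it in HP1a RNAi alone, and 7 genes (CG15019, shi, Hsf, Zip99C, par-1, C1GalTA and tacc) met it in Su(var)3-9 RNAi alone. In HP1a RNAi the leading transcripts of these 7 differed from the control by 11.7 to 23.9 points in size, against the same control libraries. Of the 7, shi was past 20 points there but overlapped the control, and par-1 and C1GalTA were under 20 points and overlapped. CG15019, Hsf, Zip99C and tacc were under 20 points and cleared the control by 8.96, 8.23, 0.721 and 0.0535 points. Genes without overlap were not counted over the 601, so these clearances are not read as a feature of the 7. That the knockdowns agree or differ in the 7 genes was not tested. The 13 genes have 65 listed transcripts, of which 19 met the rule, 11 with a larger and 8 with a smaller share than in the control. The median over the 13 genes of the largest share difference was 20.3 points in HP1a RNAi and 25.1 points in Su(var)3-9 RNAi, beside 2.69 and 2.73 points over the 601 genes.

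**Figure D1:**
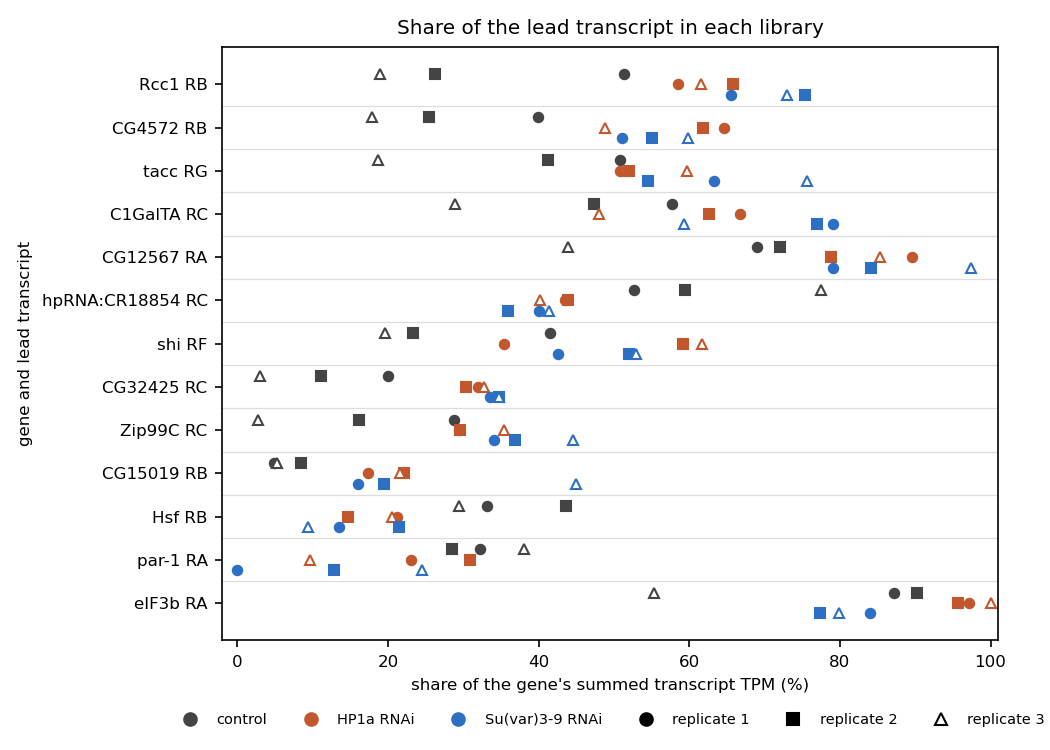
Share of the leading transcript of each of the 13 genes (rows, ordered by the size of the difference) in percent of the gene's summed TPM (horizontal axis). Each point is 1 library, with grey for the control, orange for HP1a RNAi and blue for Su(var)3-9 RNAi, and the shape gives the replicate. Control replicate 3, the open grey triangle, is the control farthest from the knockdown libraries in 11 of the 13 rows, and eIF3b is the row in which the orange and the blue points lie on opposite sides of control replicates 1 and 2.

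Rcc1 (CG10480, chromosome 3L) encodes the exchange factor that loads Ran, the small GTPase of nuclear transport, with GTP on chromatin. It had the largest difference in Su(var)3-9 RNAi. Its transcript RB held 51.3%, 26.2% and 18.9% of the gene's TPM in control replicates 1 to 3. The share of RB was 58.5%, 65.9% and 61.5% in HP1a RNAi and 65.5%, 75.4% and 73.0% in Su(var)3-9 RNAi. Every knockdown library lay above every control, and control replicate 1 came within 7.24 points of the lowest HP1a RNAi library. The mean share was 32.1% ± 17.0 (SD, n = 3) in the control, 62.0% ± 3.69 (SD, n = 3) in HP1a RNAi and 71.3% ± 5.17 (SD, n = 3) in Su(var)3-9 RNAi, differences of 29.8 and 39.2 points. RC was lower instead, and held 0%, 34.2% and 54.1% in the control. In HP1a RNAi RC was listed at 0% in replicates 1 and 3 and at 0.0934% in replicate 2, and it held at most 5.597% in Su(var)3-9 RNAi. RC did not meet the rule because control replicate 1 also listed it at 0.

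RB and RC of Rcc1 are nearly the same molecule. In the BDGP6 annotation, a later build than the dm3 build of the files that was used only for how transcripts relate, they share their start, their end and their coding exons (547 residues), and RB has an exon of 59 bases that RC lacks. Their summed share, computed after the values were seen, was 61.6% ± 10.9 (SD, n = 3) in the control, 62.0% ± 3.74 (SD, n = 3) in HP1a RNAi and 73.7% ± 7.11 (SD, n = 3) in Su(var)3-9 RNAi, and both knockdown groups overlapped the control. In HP1a RNAi the sum differed from the control by 0.438 points and in Su(var)3-9 RNAi by 12.1 points, so most of the difference in RB lay in how the TPM of the pair were divided. Rcc1 met the rule whichever of the 9 libraries was left out, and without control replicate 3 the differences of RB were 23.2 and 32.6 points.

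Hsf (CG5748, chromosome 2R) encodes the transcription factor that switches on heat shock genes. Its leading transcript RB had a smaller share in the knockdown libraries. RB held 33.1%, 43.6% and 29.5% in the control, 21.2%, 14.6% and 20.5% in HP1a RNAi and 13.4%, 21.5% and 9.40% in Su(var)3-9 RNAi. Neither knockdown group overlapped the control, the highest library lying 8.23 points below the lowest control in HP1a RNAi and 7.97 points below it in Su(var)3-9 RNAi. The mean difference was -16.6 points in HP1a RNAi, under the threshold, and -20.6 points in Su(var)3-9 RNAi. In contrast to most of the 13 genes, control replicate 3 was here the control nearest to the knockdown libraries, and without it the differences were -19.6 and -23.6 points. Without control replicate 2 they were -12.5 and -16.5 points, and Hsf then did not meet the rule, nor did it without Su(var)3-9 RNAi replicate 1 or 3, so that it met the rule in 6 of the 9 settings that left out a library.

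Transcripts RA, RB and RD of Hsf share their start and end and encode proteins of different length. RB holds 72 bases more than RA, which adds 24 residues (715 against 691), and RD holds a further exon of 54 bases, which adds 18 residues (733). RD was listed at 0% in all 3 controls, at 4.72%, 2.44% and 2.74% in HP1a RNAi and at 7.19%, 3.35% and 11.5% in Su(var)3-9 RNAi. These shares correspond to at most 1.92 TPM. RC is 54 bases longer than RA in the files, but its structure could not be matched to BDGP6, so whether it carries the same exon is not known. In a grouping made after the values were seen, RC and RD together held 6.01% ± 3.87 (SD, n = 3) of the gene's TPM in the control, all of it from RC, 17.6% ± 5.25 (SD, n = 3) in HP1a RNAi and 20.3% ± 3.09 (SD, n = 3) in Su(var)3-9 RNAi. RB and RD, which carry the 72-base stretch, together held 35.4% ± 7.35 (SD, n = 3), 22.1% ± 4.55 (SD, n = 3) and 22.1% ± 2.35 (SD, n = 3). Whether RC carries this stretch is not known either. Both knockdown groups lay apart from the control in both sums, with RC and RD higher and RB and RD lower. The second sum holds RB, the transcript on which Hsf met the rule, so it is not separate from the selection.

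eIF3b (CG4878, chromosome 2R) encodes a subunit of the initiation factor that helps load the small ribosomal subunit onto mRNA, and it was the only gene of the 13 on a list of ribosomal proteins and translation factors that held 61 of the 601 genes. It was also the most abundant of the 13, with a mean of 102.5 TPM in the control. RA held 87.2%, 90.2% and 55.4% in the control, 97.2%, 95.6% and 100% in HP1a RNAi and 84.1%, 77.4% and 79.8% in Su(var)3-9 RNAi. The HP1a RNAi libraries lay above all controls, with a mean difference of 20.01 points, and the Su(var)3-9 RNAi libraries lay between control replicate 3 and the other controls, with a mean difference of 2.83 points. The threshold was passed through control replicate 3, since without it the difference was 8.91 points in HP1a RNAi and -8.28 points in Su(var)3-9 RNAi, the latter with the opposite sign. The knockdown groups did not overlap each other, and their means differed by 17.2 points, below the 20 points of the rule.

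hpRNA:CR18854 (CG18854, chromosome 2L) is not a protein-coding gene in the current annotation but a long hairpin RNA, a kind of transcript that Drosophila cells cut into endogenous small interfering RNAs. RC held 52.7%, 59.4% and 77.5% in the control, and 43.6%, 43.9% and 40.1% in HP1a RNAi. It held 40.1%, 35.9% and 41.3% in Su(var)3-9 RNAi. All 6 knockdown libraries lay below the controls, with mean differences of -20.7 and -24.1 points. RB had the larger share, with 30.8% ± 9.77 (SD, n = 3) in the control, 50.8% ± 1.41 (SD, n = 3) in HP1a RNAi and 49.3% ± 4.08 (SD, n = 3) in Su(var)3-9 RNAi, so that RB and not RC was the main transcript there. In TPM, control replicate 3 listed RC at 35.5, against 16.2 and 12.8 in the other controls and 9.17 to 14.1 in the knockdown libraries. Without control replicate 3 the differences of RC were -13.5 and -16.9 points.

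**Figure D2:**
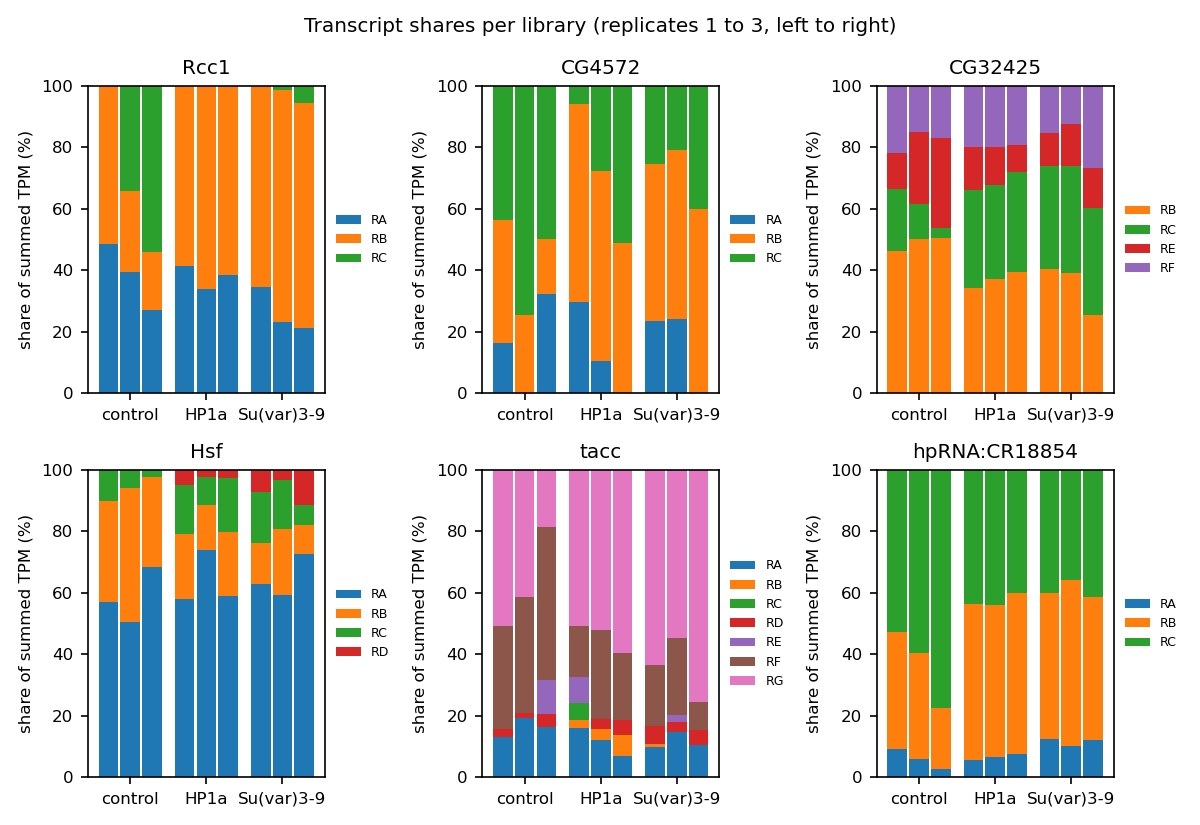
Transcript shares (percent of the gene's summed TPM, vertical axis) of 6 of the genes, with a bar per library, replicates 1 to 3 from left to right in each group, and a colour per transcript above 0. In Rcc1, RC is at 34.2% and 54.1% in control replicates 2 and 3 and at most 5.597% in the other libraries, and in Hsf, RD is listed only in the knockdown libraries.

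Next come genes of membrane traffic and the cytoskeleton. shi (CG18102, chromosome X) encodes dynamin, the GTPase that pinches endocytic vesicles from the plasma membrane. RF held 41.6%, 23.3% and 19.6% in the control, 35.5%, 59.2% and 61.7% in HP1a RNAi and 42.6%, 52.03% and 52.9% in Su(var)3-9 RNAi. Only the Su(var)3-9 RNAi libraries were clear of the control, by 1.07 points, while HP1a RNAi replicate 1 lay below control replicate 1. The mean differences were 23.9 and 21.0 points. RD, which had 0.631%, 24.2% and 63.1% in the control, was at most 6.08% in any knockdown library, and overlapped the control through control replicate 1. The 3 transcripts under 3500 bases (RD, RF and RG) together held 65.3% ± 15.3 (SD, n = 3) in the control, 62.0% ± 2.47 (SD, n = 3) in HP1a RNAi and 61.9% ± 8.60 (SD, n = 3) in Su(var)3-9 RNAi, with overlap. Of these transcripts, only RF was clear of the control, and only in Su(var)3-9 RNAi. shi met the rule in only 5 of the 9 settings that left out a library, the fewest of the 13 genes.

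tacc (CG9765, chromosome 3R) encodes a coiled-coil protein of centrosomes and microtubules. RG held 50.7%, 41.3% and 18.6% in the control, 50.8%, 51.97% and 59.6% in HP1a RNAi and 63.3%, 54.6% and 75.6% in Su(var)3-9 RNAi. The groups did not overlap, but HP1a RNAi cleared control replicate 1 by only 0.0535 points. Mean differences were 17.3 and 27.6 points, and 8.12 and 18.5 points without control replicate 3. RF held less, with 40.3% ± 8.34 (SD, n = 3) in the control, 22.5% ± 6.22 (SD, n = 3) in HP1a RNAi and 18.0% ± 8.10 (SD, n = 3) in Su(var)3-9 RNAi. RG is RF with 42 bases more, and both have the same start, end and coding exons for a short protein of 245 residues. The long transcripts RC and RD encode 1308 and 1293 residues but held little, with means of 0% and 2.86% in the control. RA, of 4590 bases, held more than these and was in none of the matched pairs. Its share was 16.3% ± 2.98 (SD, n = 3) in the control, 11.8% ± 4.58 (SD, n = 3) in HP1a RNAi and 11.7% ± 2.69 (SD, n = 3) in Su(var)3-9 RNAi, with overlap. Transcripts under 3000 bases together held 80.9% ± 3.02 (SD, n = 3) in the control, 79.4% ± 3.11 (SD, n = 3) in HP1a RNAi and 83.3% ± 1.31 (SD, n = 3) in Su(var)3-9 RNAi, with overlap. These sums differed from the control by -1.45 and 2.46 points, so the larger differences lay among the short forms.

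par-1 (CG8201, chromosome 2R) encodes a protein kinase of cell polarity, and with 15 listed transcripts, 10 of them above 0, it was the most divided of the 13 genes. RA held 32.3%, 28.5% and 38.1% in the control, 23.1%, 30.9% and 9.70% in HP1a RNAi and 0%, 12.9% and 24.5% in Su(var)3-9 RNAi. HP1a RNAi overlapped the control, and Su(var)3-9 RNAi lay 3.97 points below it with a range of 24.5 points among its own libraries. The mean differences were -11.7 and -20.5 points. RA was at 0 TPM in Su(var)3-9 RNAi replicate 1, where the gene total was 8.91 TPM. Without this library the Su(var)3-9 RNAi difference was -14.3 points, and without control replicate 3 it was -17.9 points. After adding 1 TPM to every transcript it was -10.7 points, and par-1 met the rule in none of these settings. No transcript with a larger share met the rule.

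Zip99C (CG7816, chromosome 3R) encodes a metal ion transporter of the ZIP family. RC held 28.8%, 16.2% and 2.73% in the control, 29.5%, 29.6% and 35.4% in HP1a RNAi and 34.1%, 36.8% and 44.6% in Su(var)3-9 RNAi. Neither group overlapped the control, with HP1a RNAi clear of control replicate 1 by 0.721 points and Su(var)3-9 RNAi by 5.35 points, and the mean differences were 15.6 and 22.6 points. Without control replicate 3 they were 8.98 and 16.03 points. RD was at 31.5%, 70.0% and 82.2% in the control, 34.8% ± 7.39 (SD, n = 3) in HP1a RNAi and 29.6% ± 9.39 (SD, n = 3) in Su(var)3-9 RNAi, and overlapped through control replicate 1. RC and RD start at different positions, end at the same one and encode the same 355 residues, so the 2 transcripts differ before the coding part.

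C1GalTA (CG9520, chromosome 2L) encodes a galactosyltransferase that builds the core of mucin-type sugar chains on secreted proteins. RC held 57.7%, 47.4% and 28.9% in the control and 66.8%, 62.6% and 48.0% in HP1a RNAi. It held 79.1%, 77.0% and 59.3% in Su(var)3-9 RNAi. HP1a RNAi overlapped the control, with replicate 3 at the level of control replicate 2, and Su(var)3-9 RNAi lay above it by 1.64 points. Mean differences were 14.5 and 27.2 points, and 6.61 and 19.3 points without control replicate 3. RA differed most in the other direction, by -11.0 and -18.9 points on average, with overlap. RB, which has the same start, end and coding exons (388 residues) as RC and is 208 bases longer, held 18.2% ± 6.28 (SD, n = 3) in the control, 14.7% ± 4.85 (SD, n = 3) in HP1a RNAi and 9.91% ± 2.58 (SD, n = 3) in Su(var)3-9 RNAi.

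The remaining 4 genes carry only their CG identifiers as names. CG4572 (chromosome 3R) had the largest difference in HP1a RNAi. RB held 39.9%, 25.5% and 17.8% in the control, 64.6%, 61.8% and 48.8% in HP1a RNAi and 51.1%, 55.1% and 59.9% in Su(var)3-9 RNAi. All knockdown libraries lay above all controls, by at least 8.85 points. The mean differences were 30.6 and 27.6 points, and 25.7 and 22.6 points without control replicate 3. The TPM of RB were 5.82, 3.39 and 2.87 in the control, 7.37, 6.88 and 6.87 in HP1a RNAi and 6.64, 6.59 and 11.3 in Su(var)3-9 RNAi. RB consists of 1 exon and RA of 2, with 84 bases more in RB and the same 482 coded residues, so RB keeps a stretch that RA lacks. The mean share of RA differed little, however, by -2.84 points in HP1a RNAi and -0.397 points in Su(var)3-9 RNAi, with overlap. RC was lower on average, with 56.0% ± 16.3 (SD, n = 3) in the control, 28.2% ± 22.7 (SD, n = 3) in HP1a RNAi and 28.8% ± 10.1 (SD, n = 3) in Su(var)3-9 RNAi. These are differences of -27.8 and -27.2 points, with overlap in HP1a RNAi. The structure of RC could not be matched to BDGP6, so how RB and RC differ is not known. CG4572 met the rule whichever library was left out.

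CG32425 (chromosome 3L) had the narrowest knockdown groups of the 5 genes that met the rule in both. RC held 20.02%, 11.1% and 3.05% in the control, 31.9%, 30.3% and 32.8% in HP1a RNAi and 33.5%, 34.7% and 34.7% in Su(var)3-9 RNAi. The knockdown libraries spanned 2.45 and 1.21 points, and the controls 17.0 points. The mean differences were 20.3 and 22.9 points. In TPM, RC was low, at 3.72, 1.71 and 0.63 in the control, 3.64, 3.13 and 3.91 in HP1a RNAi and 3.41, 3.29 and 4.58 in Su(var)3-9 RNAi. The lower share was spread over several transcripts, RB with differences of -12.2 and -14.1 points and RE with -9.88 and -9.02 points. RE overlapped the control in both groups. Without control replicate 3 the differences of RC were 16.1 and 18.7 points. After adding 1 TPM to every transcript they were 14.9 and 16.6 points, under the threshold.

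CG12567 (chromosome 2L) was the only gene of the 13 on the study's list of 248 heterochromatic genes, of which 37 passed the floor. RA held 69.0%, 72.1% and 44.0% in the control, 89.6%, 78.8% and 85.3% in HP1a RNAi and 79.1%, 84.1% and 97.4% in Su(var)3-9 RNAi. No knockdown library overlapped the control, and the mean differences were 22.8 and 25.1 points. Without control replicate 3 they were 14.0 and 16.3 points, and the gene did not meet the rule. RB met the rule too, with 15.9%, 9.80% and 39.5% in the control. In the knockdown libraries it was listed above 0 only in HP1a RNAi replicate 2, at 3.84%. The TPM of RA were 10.8 ± 4.42 (SD, n = 3) in the control, 10.9 ± 0.667 (SD, n = 3) in HP1a RNAi and 12.9 ± 6.23 (SD, n = 3) in Su(var)3-9 RNAi, while RB had 3.72 ± 2.43 TPM (SD, n = 3) in the control and 0.183 ± 0.318 TPM (SD, n = 3) in HP1a RNAi.

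CG15019 (chromosome 3L) had the steadiest controls. RB held 4.86%, 8.45% and 5.32% in the control, 17.4%, 22.1% and 21.6% in HP1a RNAi and 16.04%, 19.5% and 44.99% in Su(var)3-9 RNAi. All 6 knockdown libraries were above all controls, by at least 7.59 points. The mean difference of 14.2 points in HP1a RNAi was under the threshold, and that of 20.6 points in Su(var)3-9 RNAi passed it with replicate 3 far above the others. The gene did not meet the rule without this library or without control replicate 1. RB ends 87 bases farther downstream than RA and encodes the same 146 residues. In the control RB was at 1.71 ± 0.260 TPM (SD, n = 3), in HP1a RNAi at 3.74 ± 0.595 TPM (SD, n = 3).

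**Figure D3:**
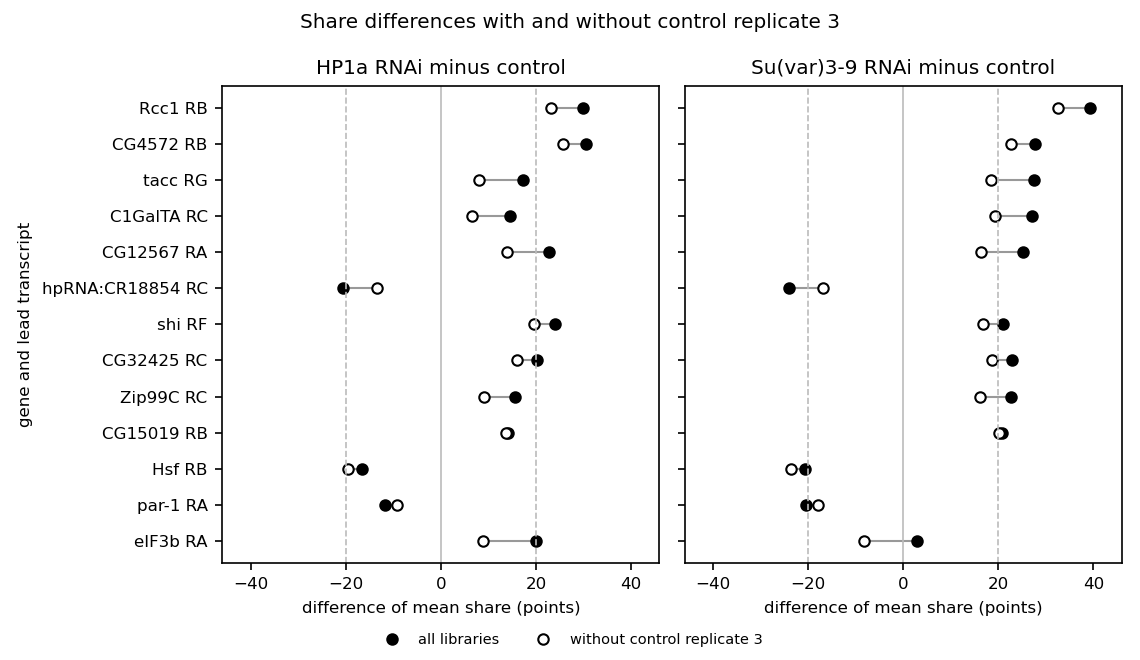
Difference of the mean share of the leading transcript from the control, in percentage points (horizontal axes), for HP1a RNAi (left) and Su(var)3-9 RNAi (right), with all libraries (filled) and without control replicate 3 (open). Dashed lines mark 20 points in either direction. Leaving out this library moved most differences toward 0, that of Hsf away from 0, and that of eIF3b in Su(var)3-9 RNAi across 0, from 2.83 to -8.28 points.

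The threshold had no gap around it. The genes just inside were Hsf at -20.6 points and par-1 at -20.5 points in Su(var)3-9 RNAi, and eIF3b at 20.01 points in HP1a RNAi. Just outside, without overlap, were Ogdh (CG11661, transcript RG) at -18.8 points and vig2 (CG11844, RB) at -17.4 points in Su(var)3-9 RNAi, and CkIIalpha (CG17520, RA) at 17.0 points in HP1a RNAi.

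The structure of the transcripts was not used by the rule. For 7 of the 13 genes (Rcc1, CG15019, CG4572, Hsf, Zip99C, C1GalTA and tacc) the leading transcript and another of the gene had the same length difference in the files and in BDGP6, so that the pair could be compared, in 12 pairs. In 8 of the 12 pairs the coding exons were the same, 6 shared both start and end, 5 started elsewhere and 1 ended elsewhere. All 5 that started elsewhere were pairs of Zip99C or tacc. Some pairs hold a transcript with little or no TPM. RA and RG of Zip99C were listed at 0 in every library, and RC of tacc was above 0 only in HP1a RNAi replicate 1. The pair counts therefore do not describe the share differences. In 9 of the 13 genes the locus overlaps another gene, in 8 a gene on the other strand. Of the 598 genes past the floor that were found by name in BDGP6, 49.3% overlapped another gene and 38.5% a gene on the other strand. The pairs of the other genes past the floor were not compared. Whether strand was used in the quantification is not given in the sources used here, so reads of such partners cannot be told apart. Of the 601 genes only 9 were on the list of RNA processing factors, 10 on that of chromatin factors and 11 on that of chaperones, and 0 of the 13 were on any of these, counts too small to read as a feature of the 13. The rule itself sets a minimum on transcripts and on TPM, and the 13 genes had a median of 3 listed transcripts, beside 2 over the 601 genes, and a median control total of 18.2 TPM, beside 27.5 TPM.

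The 2 knockdown groups were set against each other. The rule did not apply this comparison, but it chose the 13 genes on the shares of these same libraries against the control. The values of the 13 genes here are therefore a description and not an independent check. By the same criterion 2 of the 601 genes (0.333%) differed, and 0 of the 13. Named after their values were seen, these were Phm (CG3832), an enzyme that amidates neuropeptides, and mtSSB (CG4337), the single-stranded DNA binding protein of mitochondria. For the 13 genes the median of the largest share difference between these groups was 6.49 points, beside 2.01 points over the 601 genes. The largest was the 17.2 points of eIF3b.

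**Figure D4:**
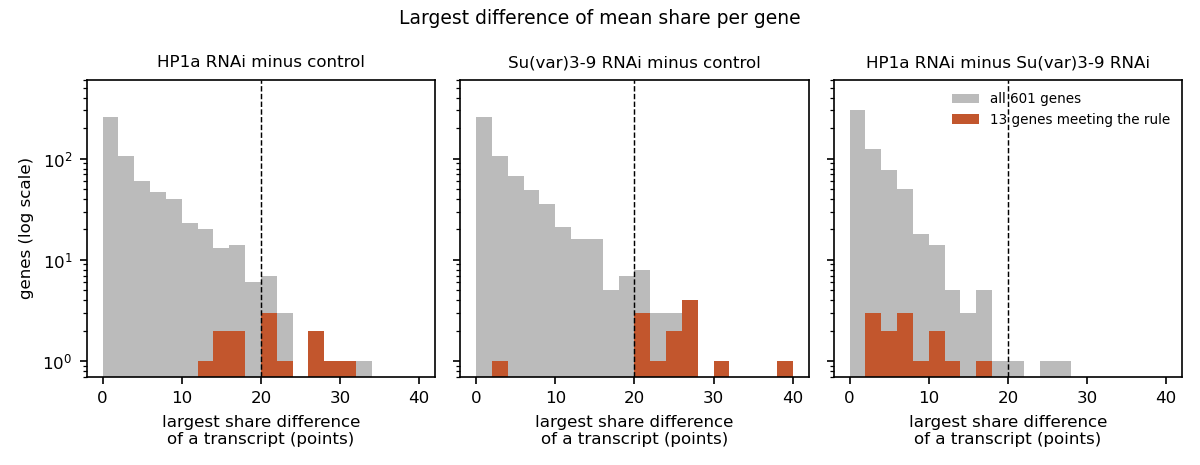
Largest difference of mean share of any transcript per gene, in percentage points (horizontal axes), against the number of genes (vertical axis, log scale), for all 601 genes (grey) and the 13 that met the rule (orange), in the 3 comparisons. The dashed line marks 20 points. Each of the 13 genes is past it in at least 1 of the comparisons with the control, as the rule requires, with eIF3b at 2.83 points in Su(var)3-9 RNAi, and all 13 are below it between the knockdown groups.

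The totals of the 13 genes were lower than in the control, and so was the median over all genes. Their summed TPM, on the log2(TPM + 1) scale, differed from the control by a median of -0.33 in HP1a RNAi and -0.27 in Su(var)3-9 RNAi, beside -0.27 and -0.23 over the 6573 genes that averaged 1 TPM or more. Over the 601 genes past the floor of 10 TPM the medians were -0.36 and -0.29, so those of the 13 genes were not lower. The totals of the 13 genes ran from -0.65 to -0.25 in HP1a RNAi and from -0.69 to -0.025 in Su(var)3-9 RNAi. Over the 601 genes they ran from -1.67 to 0.97 and from -1.87 to 0.61. After scaling by median-ratio size factors the medians of the 13 were -0.02 and -0.02. Set against the medians over the 6573 genes, 3 of the 13 totals were higher in HP1a RNAi and 4 in Su(var)3-9 RNAi. The lowest were CG32425, at -0.65 and -0.69, and CG15019, at -0.60 and -0.57. CG32425 had 18.6, 15.4 and 20.7 TPM in the control, 11.4, 10.3 and 11.9 TPM in HP1a RNAi and 10.2, 9.49 and 13.2 TPM in Su(var)3-9 RNAi, with no overlap. Genes with a CG identifier held 15.3%, 10.9% and 15.1% of TPM in the controls and 10.2% to 11.1% in HP1a RNAi. In Su(var)3-9 RNAi replicates 1 to 3 they held 9.70%, 10.5% and 14.2%. The part of this make-up of the libraries in the lower totals was not tested beyond the size factors. In bulk RNA, fewer cells that express a gene and less RNA per cell cannot be told apart either.

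Between the knockdown groups, the totals could be tested with limma over all genes. With Benjamini-Hochberg adjusted p-values from limma, 4 of 6573 genes passed 0.05 (0.0609%, and 0.0152% with the lower total in HP1a RNAi) and 0 of the 13, with 0 of the 13 at an unadjusted p under 0.05. The largest difference was in Zip99C, at -0.34 (HP1a RNAi minus Su(var)3-9 RNAi, SE 0.20, limma adjusted p = 1), and the smallest was in eIF3b, at -0.0021 (SE 0.21, limma adjusted p = 1). The SEs ran from 0.16 to 0.31 over the 13 genes, and a difference of the size seen in Zip99C was not called in this fit. With median-ratio size factors Zip99C was at -0.29 (SE 0.12, limma unadjusted p = 0.047, adjusted p = 0.69). Without Su(var)3-9 RNAi replicate 3, 3 of the 13 (par-1, tacc and shi) were at an unadjusted limma p under 0.05, and 0 were called after adjustment.

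**Figure D5:**
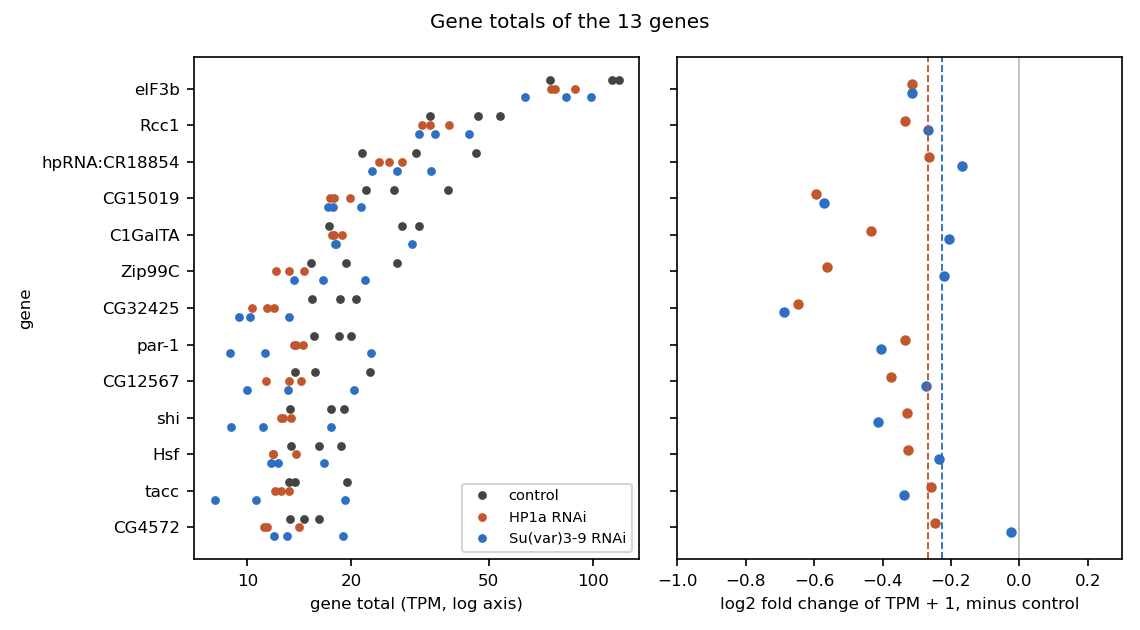
Gene totals of the 13 genes. Left, summed TPM per library (log axis), with a point per library coloured by group. Right, log2 fold change of TPM + 1 against the control in HP1a RNAi (orange) and Su(var)3-9 RNAi (blue), with dashed lines at the medians over 6573 genes, -0.27 and -0.23. CG32425 and CG15019 lie farthest to the left.

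Factors that act on splicing and on 3′ end formation were examined as a list of 67 RNA processing genes, of which 63 were matched and 58 tested. In HP1a RNAi 4 of the 58 were called, all lower, where 4.34% of all genes were called and 4.12% were called lower, and the median log2 fold change of the list was -0.31, beside -0.27 over all genes. These were Hrb27C, an hnRNP protein, at -1.003 (SE 0.24, limma adjusted p = 0.0362), Sxl, the master splicing regulator of sex determination, at -0.79 (SE 0.17, limma adjusted p = 0.0228), and how and mbl, at -0.63 each (SE 0.16 and 0.16, limma adjusted p = 0.0432 and 0.0440). how encodes a STAR-family and mbl a muscleblind-family RNA-binding protein. Hrb27C averaged 54.2 TPM in the control, 26.6 TPM in HP1a RNAi and 22.5 TPM in Su(var)3-9 RNAi, whereas Sxl, how and mbl were at 5.26 TPM or less in every group. With size factors 0 of the 58 were called, as without control replicate 1 and without HP1a RNAi replicate 1 or 3, and without control replicate 2 the count was 32. In Su(var)3-9 RNAi 0 of the 58 were called by limma (9 at an unadjusted p under 0.05), where 0.167% of all genes were called and 0.152% were called lower, and 10 without Su(var)3-9 RNAi replicate 3. Between the knockdown groups limma called 0, with 1 at an unadjusted p under 0.05.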

How the data were processed

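The authors trimmed reads with Cutadapt, aligned them to dm3 with STAR 2.4.5a in 2 passes and deposited RSEM 1.3.0 TPM per gene and per transcript for 9 libraries, rounded to 2 decimals. Tables of posterior probabilities and fold changes per knockdown that the authors deposited were not used. Groups came from the labels. Shares, ranges and counts were computed with Python 3.11.15, pandas 2.3.3 and numpy 2.4.6. Gene totals were tested as log2(TPM + 1) for genes averaging 1 TPM or more in the 9 libraries, with limma 3.58.1 in R 4.3.3 (eBayes with trend, two-sided, 6 libraries per comparison, Benjamini-Hochberg threshold 0.05), and the fits were tested on simulated data. A fold change on this scale understates low genes. Names came from RefSeq, with 14598 of 15168 identifiers (96.2%) given a single name, and transcript relations from BDGP6, without coordinates. All 13 genes are named, with the 3 transcripts on each side of the threshold and called list genes. The members, lists and tests were chosen with earlier results of these data known, and the sums over transcripts after the shares were seen. Alternatives were other thresholds, floors, pseudocounts, filters, size factors, a joint fit, a replicate block, no trend, and leaving out each library. The depth per library is unknown.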

Additional observations from a re-analysis of the deposited data

How the results depend on the processing

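With all libraries 13 genes met the share rule, 6 in HP1a RNAi, 12 in Su(var)3-9 RNAi and 2 between the knockdown groups. In the same order, these counts were 44, 33, 24 and 10 at a share difference of 0.1, and 2, 1, 1 and 0 at 0.3. They were 27, 17, 19 and 8 at a floor of 5 TPM, and 1, 1, 0 and 0 at 50 TPM. Without the overlap condition the first 3 were 25, 15 and 20, and after adding 1 TPM to every transcript 5, 2 and 5, the 5 being Rcc1, CG15019, hpRNA:CR18854, CG4572 and C1GalTA. Leaving out each library in turn gave 10 to 31, 5 to 24, 8 to 21 and 2 to 9, with the highest without control replicate 1 and the lowest without control replicate 3 for the first. The Su(var)3-9 RNAi difference of eIF3b RA then ran from -8.28 points without control replicate 3 to 9.15 points without control replicate 2.

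Calls on gene totals moved more. In HP1a RNAi 285 genes were called, and 26 without a filter, 114 at a mean of at least 5 TPM, 58 with size factors, 35 with all 9 libraries in 1 fit, 605 with the replicate block, and 60 (without control replicate 1) to 2767 (without control replicate 2) when a library was left out. In Su(var)3-9 RNAi the 11 calls became 6 with a pseudocount of 0.1 TPM, 3 at a mean of at least 5 TPM, 5 with size factors, 25 with all 9 libraries, 108 with the replicate block, 5 without trend, and 5 (without control replicate 2) to 724 (without Su(var)3-9 RNAi replicate 3) when a library was left out. Between the knockdown groups 4 became 1 without a filter, 3 with the replicate block, and 3 to 29, the latter without Su(var)3-9 RNAi replicate 1. RNA processing genes called in HP1a RNAi numbered 4, and 0 without a filter, 2 at a mean of at least 5 TPM, 0 with size factors, 0 with all 9 libraries, 7 with the replicate block, 2 without trend, and 0 to 32. In Su(var)3-9 RNAi they numbered 0, 1 with the replicate block, and 0 to 10. No member was called between the knockdown groups under any of these settings. Whether the replicate numbers pair the libraries is not known. Correlations of deviations from the group means ran from -0.45 to 0.12 between same-numbered libraries and from -0.21 to 0.46 between the others. With 3 libraries per group they cannot settle the question. The cause of these changes was not tested.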
